A study of Mus musculus with 10 samples.

Results

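The Rab GTPases were taken as every row of the deposited expression table whose symbol is Rab followed by a number and, where present, a paralogue letter, which selected 59 of 54343 genes by name, with no use of measured values. Of these, 41 had an FPKM (fragments mapped to a gene, divided by its length and by the library's mapped total) of 1 or more in 5 or more of the 10 libraries and were tested, and 18 did not reach that level. The 41 passed a filter on level, so counts over them do not describe all members. RNA came from cultured cells of a pair of mouse tumour lines, 5 libraries from MC38.T4 and 5 from parental MC38, with both lines grown in the same medium. MC38, described as wild type, came from a vendor. MC38.T4, described as having low mesothelin expression, is 1 clone. MC38 cells were transfected with human mesothelin and cloned, that clone (MC38.huMSLN.34) grew as a tumour in C57BL/6 mice, and a single mesothelin-low cell from the recultured tumour founded the line. In this design the effects of cloning, transfection and growth in mice on the MC38.T4 values cannot be told apart. Per the labels the clone proliferates like its parent in culture and grows faster in mice, and the study's title concerns SSBP4 and cholesterol synthesis.

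Rab proteins are small GTPases that mark membranes for vesicle budding, transport, tethering and fusion. They switch between a GDP-bound form held in the cytosol by GDP dissociation inhibitors and a GTP-bound form on membranes, under the control of exchange factors and GTPase-activating proteins, and each recruits its own effectors. Membrane binding depends on prenylation, the attachment of geranylgeranyl groups derived from the mevalonate pathway that also supplies cholesterol. Transcript levels show neither the amount of protein nor how much of it is GTP-bound.

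Promoter sequence is shown for 5 genes on which the results below turn. Rab1a and Rab1b are paralogues that changed in opposite directions. Rab5a, Rab20 and Rab24 are strongly changed genes that hold the searched E-box CACGTG. Rab3a (log2 difference 1.30) also changed strongly and holds another searched motif, but its sequence is not shown. The sequences are from RefSeq (GRCm38.p6), run 5′ to 3′ in the direction of transcription and end 50 bases after the annotated start. Capitals mark the E-box CACGTG and the cyclic AMP response element TGACGTCA.
Rab1a (chr11:20201162-20201461, plus strand): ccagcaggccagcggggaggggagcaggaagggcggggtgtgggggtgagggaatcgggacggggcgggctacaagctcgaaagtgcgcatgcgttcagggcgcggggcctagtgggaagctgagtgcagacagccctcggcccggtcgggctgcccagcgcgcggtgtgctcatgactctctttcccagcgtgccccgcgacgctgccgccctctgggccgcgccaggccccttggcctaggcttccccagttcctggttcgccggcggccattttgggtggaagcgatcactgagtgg
Rab1b (chr19:5106947-5107246, minus strand): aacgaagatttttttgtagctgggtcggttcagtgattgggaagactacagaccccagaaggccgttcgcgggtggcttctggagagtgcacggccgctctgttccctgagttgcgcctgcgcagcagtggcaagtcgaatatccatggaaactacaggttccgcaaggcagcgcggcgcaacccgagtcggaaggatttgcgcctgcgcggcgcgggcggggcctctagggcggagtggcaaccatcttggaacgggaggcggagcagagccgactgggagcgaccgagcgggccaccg
Rab5a (chr17:53478984-53479283, plus strand): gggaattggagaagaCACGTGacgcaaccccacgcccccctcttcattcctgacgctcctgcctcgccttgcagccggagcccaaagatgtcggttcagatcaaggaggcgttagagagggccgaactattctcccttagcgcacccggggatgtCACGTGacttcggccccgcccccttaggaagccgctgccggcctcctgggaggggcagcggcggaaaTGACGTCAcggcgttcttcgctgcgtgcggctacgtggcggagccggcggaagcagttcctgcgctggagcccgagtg
Rab20 (chr8:11478591-11478890, minus strand): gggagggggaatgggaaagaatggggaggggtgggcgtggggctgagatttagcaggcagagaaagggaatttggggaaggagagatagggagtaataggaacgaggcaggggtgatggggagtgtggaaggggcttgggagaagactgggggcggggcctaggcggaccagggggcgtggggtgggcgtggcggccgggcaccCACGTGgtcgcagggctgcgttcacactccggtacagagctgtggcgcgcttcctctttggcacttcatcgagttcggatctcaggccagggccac
Rab24 (chr13:55321931-55322230, minus strand): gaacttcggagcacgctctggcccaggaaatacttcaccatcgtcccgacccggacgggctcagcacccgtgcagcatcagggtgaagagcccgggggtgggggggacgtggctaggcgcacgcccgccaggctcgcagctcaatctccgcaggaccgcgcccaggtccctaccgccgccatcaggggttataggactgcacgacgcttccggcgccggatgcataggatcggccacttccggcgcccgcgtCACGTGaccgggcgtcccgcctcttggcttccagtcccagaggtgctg
RefSeq windows of the same 300 bases were found for 48 of 59 members, 35 of them tested. The E-box CACGTG, which reads the same on both strands, was present in 6 members (Rab5a, Rab20, Rab21, Rab23, Rab24 and Rab27a), each in 1 window. Since a gene can have several windows, this came to 6 of 60 member windows (10%), against 7.15% of 32851 promoter windows of all genes. Among the 5 tested genes of this group, Rab5a, Rab20, Rab21 and Rab23 were lower in MC38.T4 and Rab24 was higher (limma adjusted p under 0.05). Over all tested genes 86.0% were called and 42.9% were lower. The share lower among all genes with an E-box was not computed, so no link of motif and direction is drawn. The element TGACGTCA, also the same on both strands, was found in Rab5a and Rab25 (2 of 60 member windows, 3.33%) and in 1.79% of all windows. The letters TGANTCA of the AP-1 motif, whose reverse complement is the same pattern, were found in Rab15, Rab34 and Rab39b. These were 3 of 60 member windows (5%), against 7.81% of all windows. The letters TCACNCCAC of a sterol response element, searched on both strands, were found in Rab3a (1 of 60 member windows, 1.67%) and in 1.24% of all windows. The searched patterns do not overlap in the printed windows, and a match is a run of letters, not a bound site.

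Rab transcripts were about evenly split between higher and lower in MC38.T4. Of 41 tested Rab genes, 34 passed limma's test on log2(FPKM + 1) at an adjusted p under 0.05 (82.9%), against 86.0% of all 11110 tested genes. Among them, 17 were higher in MC38.T4 (41.5%, against 43.1% of all tested genes) and 17 were lower (41.5%, against 42.9%). The libraries of the lines did not overlap for 32 of 41 Rab genes (78.0%), and for 77.4% of all tested genes. A change of at least 2-fold on the log2(FPKM + 1) scale was found for 5 Rab genes (12.2%, against 17.2% of all tested genes). These were Rab24, Rab4b and Rab3a among the rises and Rab30 and Rab20 among the falls. The median log2 difference was -0.00048 over the tested Rab genes and 0.00077 over all tested genes, and the median size of the difference was 0.42 over the Rab genes and 0.47 over all tested genes. The shares of Rab genes called were thus near those of the whole table. Fold changes on this scale understate the change of genes with low FPKM, and the ratios of mean FPKM given below are on the linear scale.

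**Figure D1:**
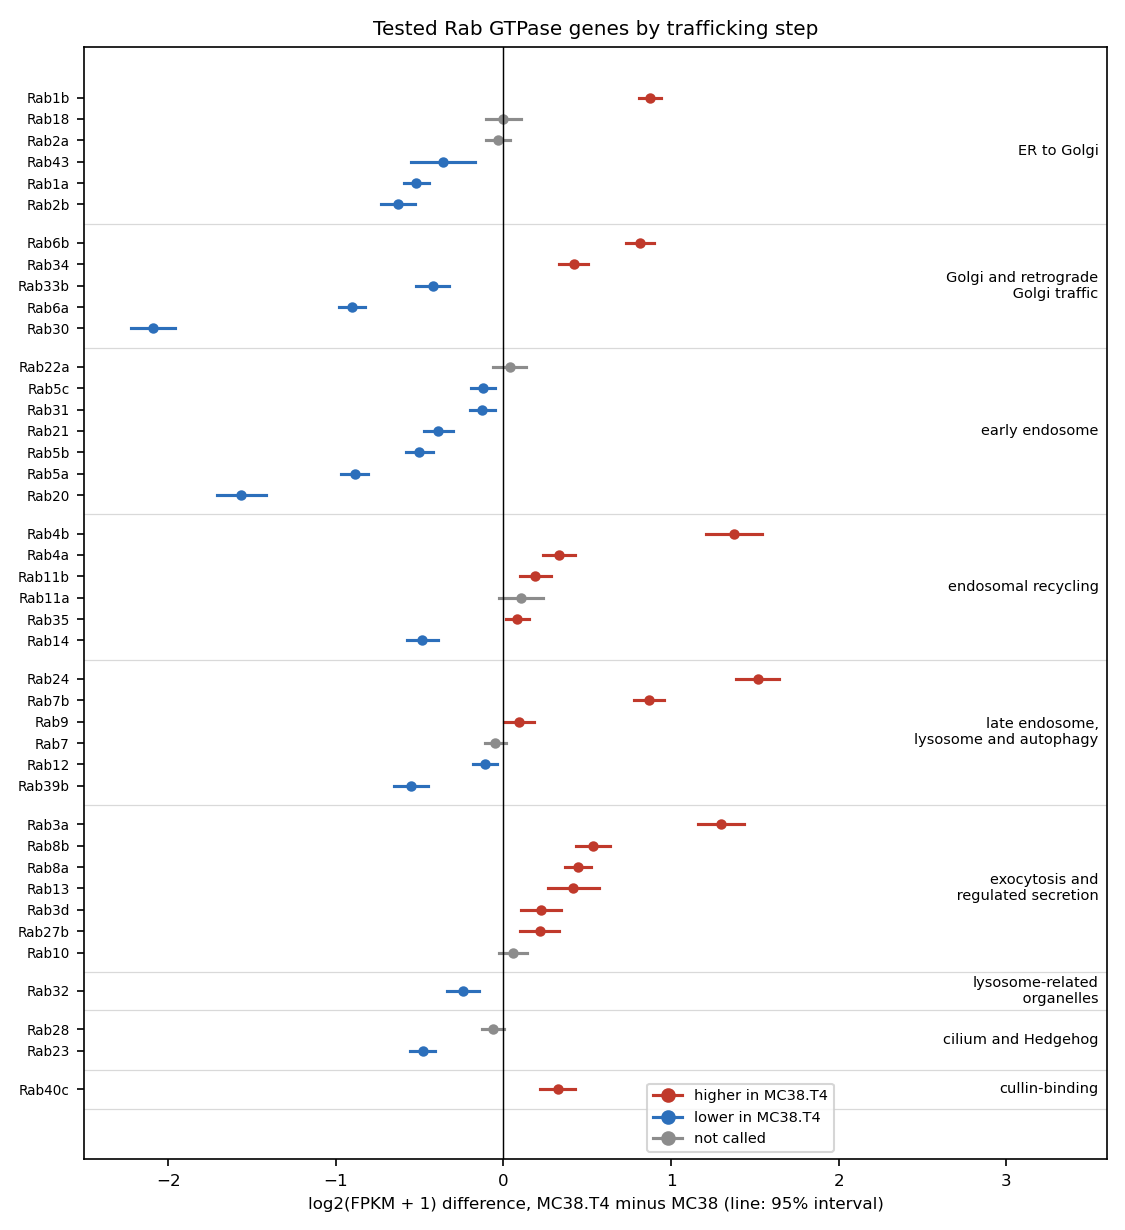
Log2(FPKM + 1) difference, MC38.T4 minus MC38, of each of the 41 tested Rab genes with its 95% interval (horizontal axis), grouped by trafficking step. Red marks genes called higher in MC38.T4, blue genes called lower and grey genes not called; Rab30 lies lowest at -2.09 and Rab24 highest at 1.52, the early endosome group holds no called rise and the exocytosis group no called fall.

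Summed over all 59 members, Rab transcripts came to 1504.5 ± 25.9 FPKM in MC38.T4 and 1613 ± 25.5 FPKM in MC38 (SD, n = 5 each). This was 0.313% ± 0.0058 of all FPKM in MC38.T4 and 0.347% ± 0.0137 in MC38. The 8 members with the highest means held 54.2% of the Rab total in MC38.T4 and 57.4% in MC38. Rab7, the late endosomal Rab, had the highest mean in both lines, followed in MC38.T4 by Rab5c, Rab18, Rab1a, Rab1b, Rab2a, Rab14 and Rab34. In MC38 it was followed by Rab1a, Rab5c, Rab18, Rab6a, Rab14, Rab2a and Rab5a. Rab1b and Rab34 are thus among the 8 highest in MC38.T4, and Rab6a and Rab5a in MC38.

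The libraries were checked before the members were described. FPKM summed to 478019 to 484461 in MC38.T4 and to 442183 to 477015 in MC38, and depth relative to MC38 replicate 1, read from single-read steps, was 0.874 to 1.14. MC38 replicate 1 had the lowest sum (442183, against 466802 to 477015 in the other MC38 libraries), and MC38.T4 replicate 4 the highest Malat1 (125 FPKM, against 53.1 to 75.9 FPKM in the rest of its line). Without this pair of libraries, which stand apart on these measures, 18 Rab genes were called higher and 17 lower. The labels call the tissue melanoma and the line a colon carcinoma. None of 12 intestinal epithelial markers reached the tested level, with Cdx2 at 0 in every library and sums of 1.12 to 1.44 FPKM in MC38.T4 and 0.0826 to 0.241 FPKM in MC38. Of 7 melanocyte markers only Mitf was tested, Tyr was at 0, and the sums were 1.85 to 2.07 FPKM in MC38.T4 and 1.19 to 1.52 FPKM in MC38. Of 8 fibroblast and pericyte markers 5 were tested and all 5 were higher, where 43.1% of all tested genes were. The sums were 350.1 to 357 FPKM in MC38.T4 and 34.7 to 37.9 FPKM in MC38. Col3a1 made up most of the MC38.T4 sum (247 FPKM, against 6.44 FPKM in MC38), while Lum, Col1a1 and Rgs5 were below the tested level. Of 10 leukocyte markers 2 were tested, and Lck was not called. Cd68 was lower with overlap (2.21 FPKM in MC38.T4 and 3.10 FPKM in MC38, limma adjusted p = 0.0030), where 42.9% of all tested genes were lower. The leukocyte markers summed to 4.30 to 6.48 FPKM in MC38.T4 and 5.71 to 6.59 FPKM in MC38, with Cd3e, Ncr1 and Adgre1 at 0. The 5 endothelial markers summed to 0.889 to 1.03 FPKM in MC38.T4 and 0.388 to 0.517 FPKM in MC38. The part of the fibroblast marker difference in the Rab differences was not tested, and in bulk RNA less transcript per cell and fewer cells expressing a gene cannot be told apart. Nothing in the labels tells whether the libraries of a line are separate cultures, so p-values measure only spread among these libraries, possibly technical spread.

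Of 7 tested early endosome Rabs, 6 fell in MC38.T4, none rose and 1, Rab22a, was not called, with a median log2 difference of -0.39. Over all tested genes 86.0% were called, 42.9% lower and 43.1% higher, with a median of 0.00077. The counts were the same after rescaling to TPM, quantile normalization and a shift to equal medians. Summed FPKM of the group was 302 ± 2.8 in MC38.T4 and 379.9 ± 6.5 in MC38 (SD, n = 5 each), and the libraries of the lines did not overlap. The group made up 20.1% ± 0.20 of Rab FPKM in MC38.T4 and 23.6% ± 0.37 in MC38.

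Transcripts of the Rab5 genes, whose proteins direct fusion of endocytic vesicles with early endosomes, fell as a trio by unequal amounts. Rab5a read 36.7, 38.7, 41.6, 36.7 and 37.9 FPKM in the MC38.T4 libraries, against 71.9, 72.3, 69.7, 74.0 and 69.9 FPKM in the MC38 libraries. Every MC38.T4 library was below every MC38 library, and the mean was 1.87-fold lower (log2 difference -0.89, SE 0.04, limma adjusted p = 6.32e-12). Rab5b read 28.4, 30.5, 30.1, 30.9 and 32.7 FPKM in MC38.T4 and 44.2, 43.9, 41.5, 44.5 and 43.8 FPKM in MC38 (log2 difference -0.50, SE 0.04, limma adjusted p = 5.79e-09). The lines did not overlap, and MC38 replicate 3 lay below the other MC38 libraries. Rab5c, the most abundant of the group, read 128, 125, 122, 129 and 124 FPKM in MC38.T4 and 131, 143, 134, 135 and 140.0 FPKM in MC38 (log2 difference -0.12, SE 0.03, limma adjusted p = 0.0036). The gap there was narrow, 129 FPKM for the highest MC38.T4 library against 131 FPKM for the lowest MC38 library. The summed Rab5 FPKM was 194 ± 1.5 in MC38.T4 and 251.5 ± 5.6 in MC38, of which Rab5c made up 64.6% ± 1.4 in MC38.T4 and 54.2% ± 1.1 in MC38.

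Rab20, found on early endosomes and phagosomes, had the largest fall of the group. Its FPKM was 2.40, 2.58, 2.27, 3.02 and 2.81 in the MC38.T4 libraries, against 8.67, 10.6, 10.3, 8.64 and 10.2 in the MC38 libraries. The highest MC38.T4 value was far below the lowest MC38 value, and the mean was 3.70-fold lower (log2 difference -1.56, SE 0.07, limma adjusted p = 1.14e-11). Rab21, which acts in integrin endocytosis, fell to 25.4 FPKM in MC38.T4, against 33.5 FPKM in MC38, and Rab31 fell to 58.7 FPKM in MC38.T4, against 64.2 FPKM in MC38 (log2 differences -0.39 and -0.13). Rab22a, the near relative of Rab31, differed by 0.04 (95% interval -0.06 to 0.13) and was called higher only without the pair of libraries that stand apart (adjusted p = 0.0237).

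Of 7 tested Rabs of exocytosis and regulated secretion, 6 rose, none fell and Rab10 was not called, with a median log2 difference of 0.42. Over all tested genes 43.1% rose and 86.0% were called. After quantile normalization 4 of 7 passed, since Rab27b and Rab3d missed the threshold (adjusted p = 0.133 and 0.134). Where genes had to reach an FPKM of 5, 4 of the group were tested and 3 rose. With no filter on level, 12 of the group were tested, 6 rose and 1, Rab37, fell, with a median of 0.14. Rab37 averaged 0.00968 FPKM in MC38.T4 and 0.0581 FPKM in MC38 (limma adjusted p = 0.00884 in that fit). Summed FPKM of the group was 106 ± 3.5 in MC38.T4 and 86.3 ± 3.0 in MC38, without overlap, or 7.05% ± 0.15 of Rab FPKM in MC38.T4 and 5.35% ± 0.11 in MC38.

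Rab3a, which acts in regulated secretion and is best known from synaptic vesicles, rose most. It read 4.38, 4.67, 4.48, 4.53 and 4.50 FPKM in MC38.T4 and 1.13, 1.28, 1.62, 0.975 and 1.25 FPKM in MC38. All MC38.T4 libraries lay close together and above all MC38 libraries, and the mean was 3.61-fold higher (log2 difference 1.30, SE 0.06, limma adjusted p = 3.40e-11). Its level stayed low beside other Rabs. Rab3d, a Rab of secretory granules, averaged 2.56 ± 0.188 FPKM in MC38.T4 and 2.05 ± 0.199 FPKM in MC38 (log2 difference 0.22, adjusted p = 0.00163), and Rab3b and Rab3c were near 0. The share of Rab3a in summed Rab3 FPKM was 63.3% ± 2.0 in MC38.T4 and 37.5% ± 3.9 in MC38.

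Rab8a and Rab8b, which carry cargo from the Golgi and recycling compartments to the surface, both rose. Rab8b had 16.3, 16.7, 17.0, 15.3 and 15.7 FPKM in MC38.T4 libraries, against 11.8, 10.6, 10.3, 11.5 and 10.2 FPKM in MC38 libraries (log2 difference 0.53, SE 0.05, limma adjusted p = 3.25e-08). Rab8a had 16.9, 16.5, 15.5, 16.3 and 17.1 FPKM in MC38.T4 libraries, against 11.9, 12.0, 11.5, 12.3 and 11.5 FPKM in MC38 libraries (log2 difference 0.44, SE 0.04, limma adjusted p = 1.66e-08). Neither gene overlapped between the lines, whereas the share of Rab8b in the pair did, at 49.6% ± 1.8 in MC38.T4 and 47.8% ± 1.2 in MC38. Rab13, a Rab of tight junction and surface delivery, averaged 12.5 ± 0.866 FPKM in MC38.T4 and 9.17 ± 1.14 FPKM in MC38 (log2 difference 0.42). Rab27b, a Rab of secretory granules and exosome release, averaged 3.90 ± 0.374 FPKM in MC38.T4 and 3.21 ± 0.145 FPKM in MC38 (log2 difference 0.22), while Rab27a, known from melanosome transport, was near 0 in both lines.

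Rab10, the most abundant gene of the group, acts in basolateral and glucose transporter delivery. It read 49.3, 51.3, 52.6, 47.3 and 48.4 FPKM in MC38.T4 and 50.7, 46.2, 46.7, 49.3 and 45.9 FPKM in MC38. The lines overlapped, with a log2 difference of 0.06 (95% interval -0.03 to 0.14), and without the pair of libraries that stand apart the difference was 0.10 (adjusted p = 0.0204). GENCODE places an antisense transcript, Rab10os, across an exon of this gene.

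**Figure D2:**
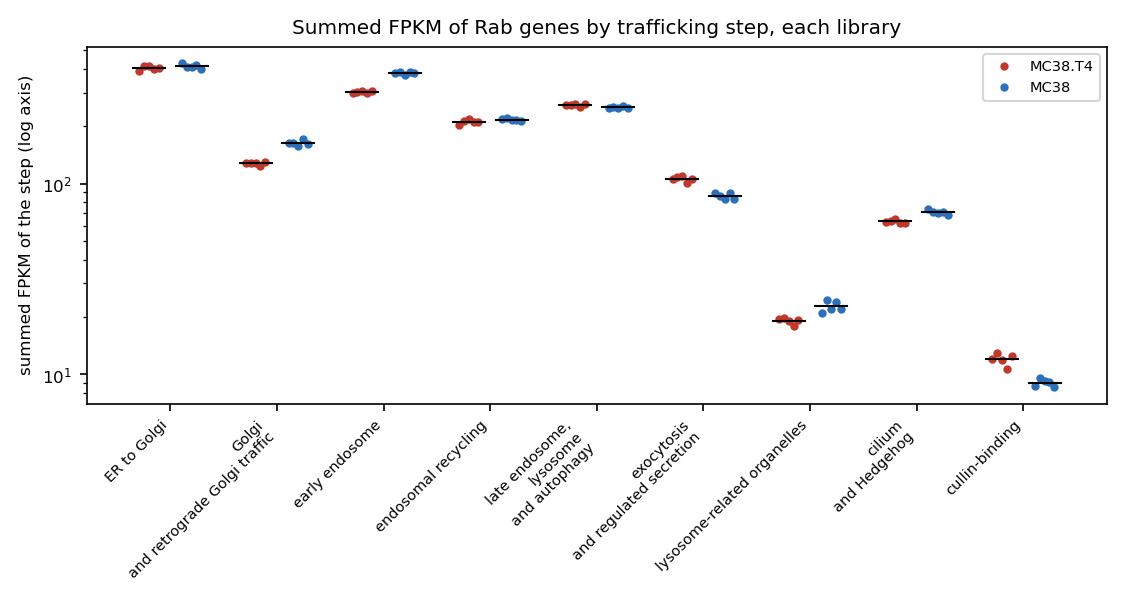
Summed FPKM (log axis) of the Rab genes of each trafficking step in each of the 5 MC38.T4 (red) and 5 MC38 (blue) libraries; black lines are means. The early endosome sums lie lower in MC38.T4 (mean 302 against 379.9 in MC38), the exocytosis sums higher (106 against 86.3), and the ER to Golgi sums overlap.

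Rabs that act between ER and Golgi overlapped between the lines in their sum and differed in its makeup. The 6 tested genes summed to 404 ± 9.7 FPKM in MC38.T4 and 413 ± 11.6 FPKM in MC38, with overlap. Of them, Rab1b rose, Rab1a, Rab2b and Rab43 fell, and Rab2a and Rab18 were not called. The shares over all tested genes were 43.1% higher, 42.9% lower and 86.0% called. The members disagree in direction, so the median of -0.20 describes none of them.

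Rab1a and Rab1b encode near-identical proteins that drive ER to Golgi transport. Rab1b had 90.9, 91.1, 88.8, 89.4 and 91.2 FPKM in the MC38.T4 libraries, against 47.3, 47.6, 50.3, 47.6 and 51.2 FPKM in the MC38 libraries, 1.85-fold higher in the mean (log2 difference 0.87, SE 0.03, limma adjusted p = 1.08e-12). Rab1a had 97.7, 106, 107, 101 and 102 FPKM in the MC38.T4 libraries, against 146, 149, 149, 152 and 139 FPKM in the MC38 libraries, 1.44-fold lower in the mean (log2 difference -0.52, SE 0.04, limma adjusted p = 1.69e-09). Neither gene overlapped between the lines. Their sum was 193 ± 3.5 FPKM in MC38.T4 and 196 ± 4.0 FPKM in MC38, while the share of Rab1b in it was 46.9% ± 1.0 in MC38.T4 and 24.9% ± 1.2 in MC38. How reads shared by such paralogues were counted is not known here, which makes the split between them uncertain to that extent.

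Rab2b, the minor paralogue of Rab2a, read 3.47, 3.44, 4.07, 3.47 and 3.58 FPKM in MC38.T4 and 6.05, 5.81, 6.47, 6.27 and 6.004 FPKM in MC38 (log2 difference -0.63, SE 0.05, limma adjusted p = 5.80e-09). The lines did not overlap, and MC38.T4 replicate 3 lay above the other MC38.T4 libraries. Rab2a, which acts in Golgi and lysosomal transport, averaged 87.0 ± 3.56 FPKM in MC38.T4 and 88.9 ± 1.37 FPKM in MC38, with a log2 difference of -0.03 (95% interval -0.10 to 0.04). Rab18, a Rab of the ER and lipid droplets, averaged 119 ± 3.38 FPKM in MC38.T4 and 119 ± 9.93 FPKM in MC38, with a log2 difference of -0.0005 (95% interval -0.11 to 0.10). Rab43 averaged 2.20 ± 0.322 FPKM in MC38.T4 and 3.12 ± 0.524 FPKM in MC38 (log2 difference -0.36, adjusted p = 0.00152) and its lines overlapped. It shares 3980 exonic bases on the same strand with the predicted gene Gm45140.

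Golgi Rabs split in direction, 2 higher and 3 lower of 5 tested, where 43.1% of all tested genes were higher and 42.9% lower. Their summed FPKM was 128 ± 2.1 in MC38.T4 and 163 ± 4.6 in MC38, without overlap. Rab6a alone averaged 51.5 FPKM in MC38.T4 and 97.5 FPKM in MC38, a wider gap than that of the sum. The lower sum thus does not describe the group without Rab6a. Rab30, a Golgi Rab, had the largest fall of any member. It read 1.31, 1.55, 1.59, 1.58 and 1.55 FPKM in MC38.T4 and 10.7, 9.27, 8.60, 10.9 and 9.31 FPKM in MC38. Every MC38.T4 library was under 2 FPKM and every MC38 library above 8 FPKM, and the mean was 6.43-fold lower (log2 difference -2.09, SE 0.06, limma adjusted p = 1.06e-13).

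Rab6a, the main Rab of retrograde Golgi traffic, read 51.3, 52.4, 52.6, 49.4 and 51.9 FPKM in the MC38.T4 libraries, against 100.4, 94.0, 94.2, 104 and 94.5 FPKM in the MC38 libraries (log2 difference -0.91, SE 0.04, limma adjusted p = 3.56e-12). Rab6b, its paralogue known mainly from neurons, read 10.4, 11.3, 10.7, 11.6 and 11.2 FPKM in the MC38.T4 libraries, against 5.98, 5.84, 5.72, 5.59 and 6.04 FPKM in the MC38 libraries (log2 difference 0.82, SE 0.04, limma adjusted p = 3.22e-11). Both separated the lines, in opposite directions. Their sums did not overlap between the lines, at 62.6 ± 1.2 FPKM in MC38.T4 and 103 ± 4.6 FPKM in MC38, and the share of Rab6b in it was 17.6% ± 0.87 in MC38.T4 and 5.66% ± 0.35 in MC38. Rab33b, a Golgi Rab that binds the autophagy protein ATG16L1, averaged 3.64 ± 0.130 FPKM in MC38.T4 and 5.22 ± 0.331 FPKM in MC38 (log2 difference -0.42). Rab34, which acts on lysosome position and in ciliogenesis, averaged 59.6 ± 1.40 FPKM in MC38.T4 and 44.4 ± 2.67 FPKM in MC38 (log2 difference 0.42), and Rab36 and Rab33a were below the tested level.

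**Figure D3:**
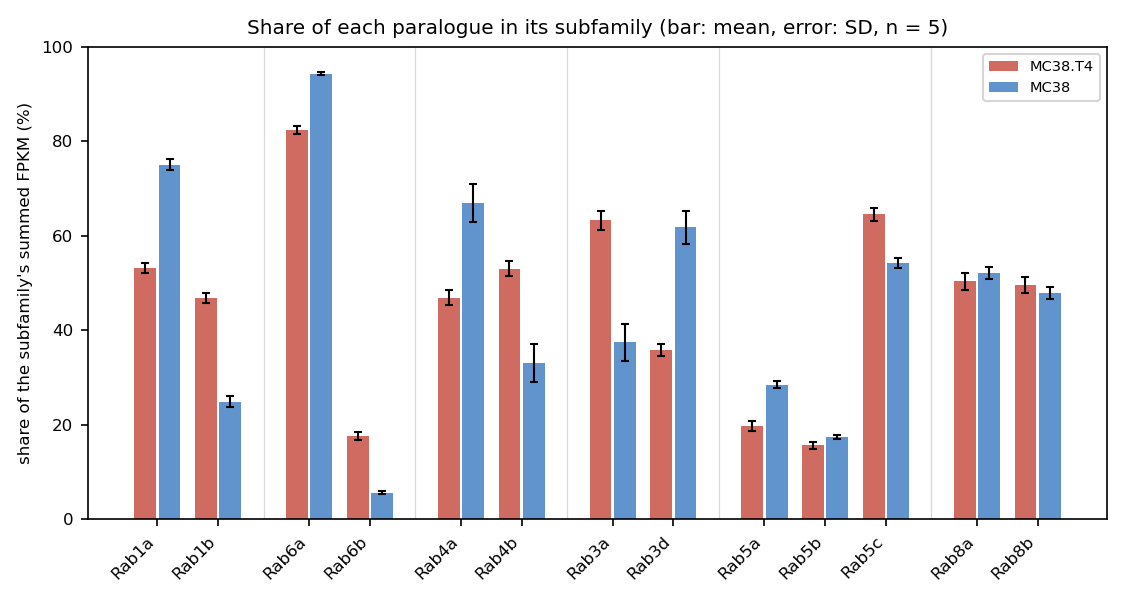
Share of each paralogue in the summed FPKM of its subfamily (bar: mean, error bar: SD, n = 5) in MC38.T4 (red, left) and MC38 (blue, right); the Rab3 sum includes Rab3b and Rab3c, which are near 0 and not drawn. Rab1b holds 46.9% in MC38.T4 and 24.9% in MC38, Rab4b 53.1% in MC38.T4 and 33.1% in MC38, and the Rab8 shares overlap.

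Recycling Rabs showed 4 rises and 1 fall among 6 tested genes (3 rises, with Rab35 lost, on the TPM scale, with equal medians and without MC38.T4 replicate 2 or 3; 5 rises without MC38.T4 replicate 1), with a median log2 difference of 0.15. Among all 11110 tested genes, 43.1% were higher, 42.9% lower and 86.0% called. Summed FPKM of the recycling group overlapped, at 211 ± 5.6 in MC38.T4 and 217 ± 3.2 in MC38. Rab4b, which acts in rapid recycling from early endosomes, read 12.9, 12.7, 13.0, 14.1 and 13.1 FPKM in MC38.T4 and 3.63, 4.63, 5.62, 3.94 and 4.68 FPKM in MC38. The lines were far apart, with a mean 2.93-fold higher (log2 difference 1.38, SE 0.08, limma adjusted p = 4.11e-10), and MC38.T4 replicate 4 lay above the other MC38.T4 libraries. Rab4a, its paralogue, averaged 11.7 ± 0.699 FPKM in MC38.T4 and 9.05 ± 0.375 FPKM in MC38 (log2 difference 0.33), and the share of Rab4b in the pair was 53.1% ± 1.5 in MC38.T4 and 33.1% ± 4.0 in MC38.

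Rab14, a Rab of the Golgi, endosomes and surface recycling, was the most abundant of the recycling group and its only fall. It read 69.6, 68.0, 71.2, 63.4 and 65.6 FPKM in MC38.T4 and 103, 92.7, 90.8, 97.1 and 90.9 FPKM in MC38, without overlap (log2 difference -0.48, SE 0.04, limma adjusted p = 3.75e-08). Rab11b, a Rab of the recycling endosome, averaged 31.3 ± 0.782 FPKM in MC38.T4 and 27.4 ± 1.87 FPKM in MC38 (log2 difference 0.19). Rab11a was 48.6, 59.1, 60.7, 61.6 and 60.4 FPKM in MC38.T4 and 51.1, 59.2, 52.6, 51.9 and 53.9 FPKM in MC38. MC38.T4 replicate 1 lay below every MC38 library while the other 4 MC38.T4 libraries clustered, and the difference was 0.11 (95% interval -0.02 to 0.24). Without MC38.T4 replicate 1 it was 0.17 (adjusted p = 0.00226), and without MC38 replicate 2 it was 0.14 (adjusted p = 0.041). Rab35, which acts in recycling and cytokinesis, averaged 28.6 ± 1.03 FPKM in MC38.T4 and 27.0 ± 0.279 FPKM in MC38 with overlap; its call (adjusted p = 0.0278) was lost in 6 alternatives, among them leaving out MC38 replicate 2, MC38.T4 replicate 2 or MC38.T4 replicate 3 (adjusted p = 0.0537, 0.0683 and 0.0762), rescaling to TPM (0.387) and a shift to equal medians (0.122).

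Late endosome, lysosome and autophagy Rabs held 3 rises, 2 falls and 1 gene not called among 6 tested. Rab9, 1 of the 3 rises, was lost under each rescaling. For comparison, 43.1% of all tested genes rose, 42.9% fell and 86.0% were called. Sums of the group were 259 ± 4.3 FPKM in MC38.T4 and 251 ± 2.9 FPKM in MC38 and overlapped. Rab24, which is linked to autophagy, had the largest rise of any member. It read 21.5, 23.5, 20.7, 18.9 and 22.3 FPKM in MC38.T4 and 6.08, 7.53, 6.62, 6.65 and 7.18 FPKM in MC38. The lowest MC38.T4 library was above every MC38 library, and the mean was 3.14-fold higher (log2 difference 1.52, SE 0.06, limma adjusted p = 2.73e-12). In GENCODE M21 its exons overlap those of Prelid1 on the opposite strand by 830 bases, and Prelid1 averaged 119 FPKM in MC38.T4 and 74.1 FPKM in MC38. The libraries were strand-specific, but no source used here gives whether counting used strand, and the part of Prelid1 reads in the Rab24 values was not tested.

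Rab7b, a Rab of endosome to Golgi transport, read 12.8, 13.5, 13.3, 12.9 and 13.0 FPKM in MC38.T4 and 6.88, 7.29, 6.64, 6.73 and 6.14 FPKM in MC38 (log2 difference 0.87, SE 0.04, limma adjusted p = 2.72e-11). No MC38.T4 library overlapped MC38. Rab7, which controls late endosome to lysosome traffic, read 167, 164, 167, 161 and 166 FPKM in MC38.T4 and 169, 168, 169.9, 175 and 170.5 FPKM in MC38. Every MC38.T4 value was below every MC38 value, yet the gap was small: the log2 difference was -0.05 (95% interval -0.11 to 0.01), with limma adjusted p = 0.125. The exact two-sided permutation p, unadjusted, was 0.00794, the smallest that 5 against 5 libraries can give, and Rab7 was called lower on the TPM scale (adjusted p = 0.0104) and with equal medians (0.0236). Rab7b made up 7.37% ± 0.18 of the pair in MC38.T4 and 3.80% ± 0.25 in MC38.

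Rab39b, which acts in endosomal and autophagic traffic, had 10.5, 11.6, 11.9, 12.2 and 11.7 FPKM in MC38.T4 and 18.6, 18.1, 16.3, 17.4 and 16.8 FPKM in MC38 (log2 difference -0.55, SE 0.05, limma adjusted p = 2.12e-08). All of its MC38.T4 libraries lay below MC38. Rab12, which acts in transferrin receptor degradation, averaged 35.1 ± 1.24 FPKM in MC38.T4 and 37.9 ± 0.958 FPKM in MC38 (log2 difference -0.11). Rab9, a Rab of late endosome to Golgi retrieval, averaged 13.0 ± 0.727 FPKM in MC38.T4 and 12.2 ± 0.354 FPKM in MC38 with overlap, and its adjusted p of 0.0467 was lost in 12 alternatives, among them the removal of MC38 replicate 1, 3, 4 or 5 or of MC38.T4 replicate 3 or 4 (adjusted p of 0.0644 to 0.135; up to 0.288 on the TPM scale).

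**Figure D4:**
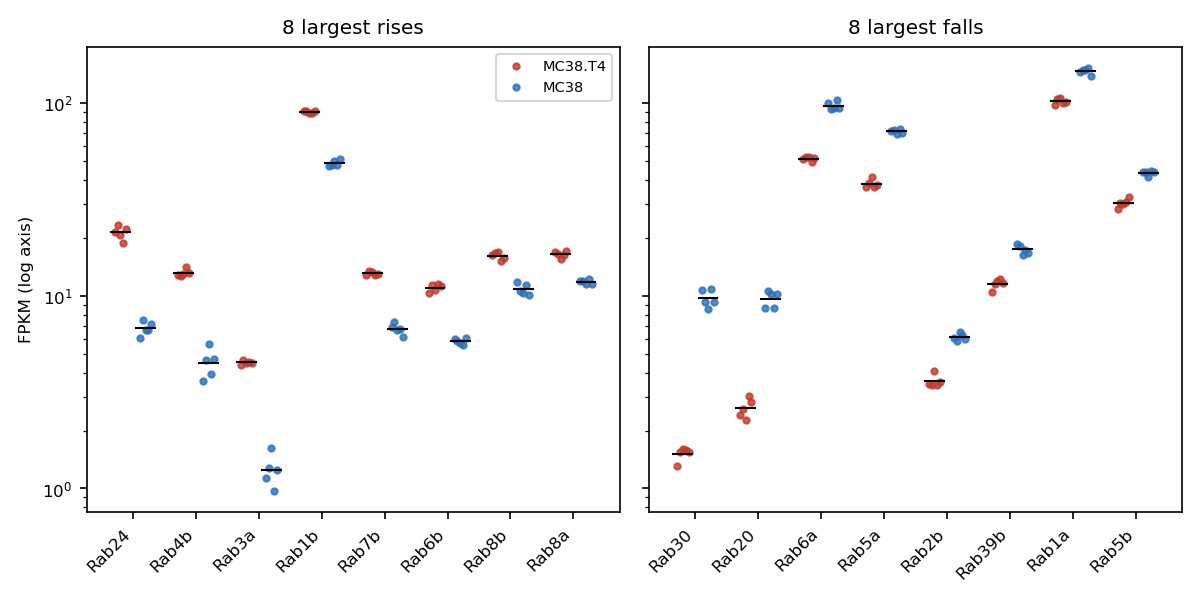
FPKM (log axis) in each library for the 8 called Rab genes with the largest rises (left) and the 8 with the largest falls (right), MC38.T4 in red left of MC38 in blue; black lines are means of 5 libraries. In none of the 16 genes do the lines overlap, which follows largely from picking them by size of difference in these libraries (77.4% of all tested genes do not overlap). Rab30 averages 1.52 FPKM in MC38.T4 against 9.76 FPKM in MC38.

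The remaining members act in specialised steps. Rab32, which serves lysosome-related organelles and mitochondria, read 19.5, 19.7, 19.2, 17.9 and 19.2 FPKM in MC38.T4 and 20.97, 24.5, 22.1, 24.1 and 22.1 FPKM in MC38 (log2 difference -0.24, SE 0.04, limma adjusted p = 0.000128). All of its MC38.T4 values were below MC38, and its melanosomal relative Rab38 was listed at 0 in every library. Rab28, a ciliary Rab, read 51.2, 50.9, 52.7, 49.9 and 50.04 FPKM in MC38.T4 and 55.7, 53.5, 52.7, 52.9 and 51.3 FPKM in MC38. The lines overlapped in part, with a difference of -0.06 (95% interval -0.13 to 0.00547); it was called lower on the TPM scale (adjusted p = 0.0197) and with equal medians (0.0112). Rab23, a negative regulator of Hedgehog signalling, averaged 12.4 ± 0.360 FPKM in MC38.T4 and 17.7 ± 0.447 FPKM in MC38 (log2 difference -0.48), without overlap. Rab40c, a Rab with a SOCS box that binds cullin ubiquitin ligases, read 11.4, 12.4, 11.4, 10.2 and 11.8 FPKM in MC38.T4 and 8.60, 9.47, 9.13, 9.004 and 8.45 FPKM in MC38, with all MC38.T4 values higher (log2 difference 0.32, SE 0.05, limma adjusted p = 1.66e-05).

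Of the 18 members below the tested level, Rab38 and Rab9b were listed at 0 in all libraries and 15 stayed under 0.2 FPKM in every library. The others, Rab40b, Rab36 and Rab15, were the highest of them, with a top value of 0.646 FPKM for Rab40b. With no filter on level, Rab40b (0.589 FPKM in MC38.T4 and 0.0833 FPKM in MC38, adjusted p = 2.51e-08), Rab15 (0.220 FPKM in MC38.T4 and 0.0503 FPKM in MC38, 0.00431) and Rab36 (0.467 FPKM in MC38.T4 and 0.328 FPKM in MC38, 0.0173) were called higher and Rab37 lower (0.00884). The other members listed above 0 were not called in that fit, which does not show that they did not differ.

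The genes that load, switch and read Rabs also moved in both directions. Of 8 genes for prenylation, escort and GDP dissociation inhibition, all tested, 4 rose and 4 fell, where 86.0% of all tested genes were called. Rabac1, which encodes a Rab acceptor protein of the Golgi, read 25.2, 24.7, 23.7, 25.5 and 22.9 FPKM in MC38.T4 and 70.3, 74.3, 82.3, 80.3 and 77.0 FPKM in MC38, 3.15-fold lower in the mean (log2 difference -1.62, SE 0.04, limma adjusted p = 5.43e-14). Every MC38.T4 library lay below every MC38 library. Rabif, a guanine nucleotide-free chaperone of Rabs, averaged 12.0 ± 0.521 FPKM in MC38.T4 and 9.13 ± 0.370 FPKM in MC38 (log2 difference 0.36), and Chml, a Rab escort protein gene, 2.29 ± 0.0742 FPKM in MC38.T4 and 5.83 ± 0.963 FPKM in MC38 (log2 difference -1.04).

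Of 41 tested exchange factors (of 45 listed), 17 rose, 20 fell and 4 were not called, or 90.2% called, against 86.0% of all tested genes (43.1% higher and 42.9% lower). Rin2, an exchange factor for Rab5, was 14.5-fold higher (6.71 ± 0.243 FPKM in MC38.T4 and 0.463 ± 0.0629 FPKM in MC38, log2 difference 2.40), opposite to the Rab5 genes. Trappc2l, a TRAPP complex subunit, averaged 9.23 ± 0.782 FPKM in MC38.T4 and 3.78 ± 0.443 FPKM in MC38. Ric1, part of the exchange factor for Rab6, averaged 8.64 ± 0.241 FPKM in MC38.T4 and 19.9 ± 1.96 FPKM in MC38, and Dennd4a, an exchange factor for Rab10, 5.84 ± 0.3005 FPKM in MC38.T4 and 13.8 ± 1.45 FPKM in MC38; both fell (log2 differences -1.11 and -1.11). Of 34 tested TBC-family GTPase-activating proteins (of 39), 15 rose, 12 fell and 7 were not called (79.4% called, against 86.0% of all tested genes). Evi5l (10.1 FPKM in MC38.T4 and 4.75 FPKM in MC38) and the Rab7 GTPase-activating protein gene Tbc1d2 (2.07 FPKM in MC38.T4 and 0.673 FPKM in MC38) had the largest rises, and Tbc1d9 (7.22 FPKM in MC38.T4 and 14.7 FPKM in MC38) and Tbc1d10b (19.2 FPKM in MC38.T4 and 34.6 FPKM in MC38) the largest falls.

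Of 41 tested Rab effectors (of 59), 21 rose, 13 fell and 7 were not called (82.9% called, against 86.0% of all tested genes). Eea1, the Rab5 effector that tethers early endosomes, read 24.2, 23.5, 24.4, 25.1 and 24.3 FPKM in MC38.T4 and 73.6, 57.0, 58.5, 62.1 and 56.2 FPKM in MC38, 2.53-fold lower in the mean (log2 difference -1.30, SE 0.06, limma adjusted p = 3.13e-11). MC38 replicate 1 was the highest of its line, and the lines did not overlap. Micall2, an effector of Rab13, averaged 16.3 ± 0.600 FPKM in MC38.T4 and 4.80 ± 0.476 FPKM in MC38 (log2 difference 1.58), and Fyco1, a Rab7 effector of autophagosome transport, 3.70 ± 0.226 FPKM in MC38.T4 and 1.01 ± 0.197 FPKM in MC38 (log2 difference 1.23). Golga5, the golgin-84 gene, averaged 14.0 ± 0.418 FPKM in MC38.T4 and 26.6 ± 1.31 FPKM in MC38 (log2 difference -0.88). Medians over the lists were -0.12 for prenylation and escort genes, -0.08 for exchange factors, -0.02 for GTPase-activating proteins and 0.14 for effectors.

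Rab genes were set beside the tested genes that flank them in RefSeq gene order of GRCm38.p6, up to 5 on each side. Of 34 called Rab genes, 24 had the sign of their neighbours' median, and across 41 genes the correlation of own with neighbour difference was r = 0.35 (Spearman's rho 0.33), given as a description of points that share libraries and, in part, neighbours. The same share and correlation were not computed over all tested genes, so neither value is read as a trait of Rab genes. Rab32, on chromosome 10, lies where 9 of 10 neighbours fell and none rose, with a neighbour median of -1.07 against its own -0.24. Rab30, on chromosome 7, has 7 of 10 neighbours lower and a median of -0.85, smaller than its own fall of -2.09. Rab20, on chromosome 8, fell by 1.56 where the neighbour median was 0.48, and Rab5a, on chromosome 17, fell by 0.89 beside a median of 0.26. Rab3a, also on chromosome 8, is separated from Ssbp4, the gene of the study's title, by 3 tested genes, and its neighbours had a median of 0.39 with 6 of 10 higher. Rab24 and Rab4b had neighbour medians of 0.05 and 0.07, far below their own differences.

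**Figure D5:**
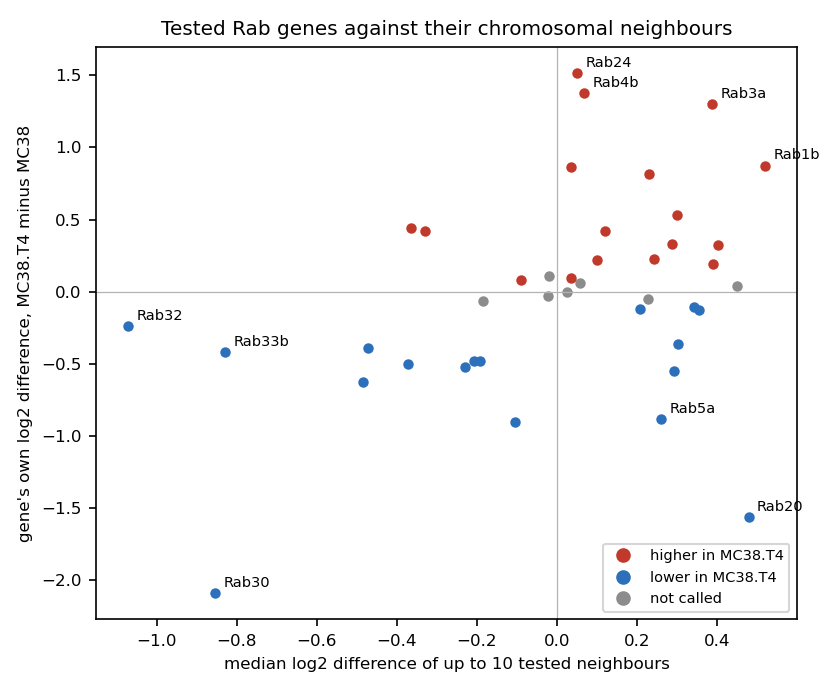
Log2 difference, MC38.T4 minus MC38, of each of the 41 tested Rab genes (vertical axis) against the median difference of up to 10 tested neighbouring genes (horizontal axis). Red marks genes called higher, blue called lower and grey not called; Rab30 and its neighbours (-2.09 and -0.85) are both lower, whereas Rab20 (-1.56) sits among neighbours with a median of 0.48.

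Exons of 7 tested Rab genes overlap those of another tested gene in GENCODE M21. Besides Rab24, Rab43 and Rab10, Rab6a overlaps Mrpl48 by 409 bases, Rab2b overlaps Tox4 by 158 bases and Rab3a overlaps Mpv17l2 by 29 bases, all on opposite strands, and Rab11b overlaps the model Gm17251. Mrpl48 averaged 11.0 FPKM in MC38.T4 and 13.7 FPKM in MC38, Tox4 10.9 FPKM in MC38.T4 and 21.5 FPKM in MC38, and Mpv17l2 16.6 FPKM in MC38.T4 and 14.7 FPKM in MC38. The part of shared bases in the values of Rab6a, Rab2b and Rab3a was not tested.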

How the data were processed

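RNA of 10 libraries (5 MC38.T4, 5 MC38) was sequenced after polyA selection with a strand-specific kit, per the labels' protocols. The authors deposited 1 table described as FPKM, with 1 column per library. FPKM is by definition scaled by gene length and library total, but how the library scale of this table was set is not given in the sources used here. Per the submitters' processing notes the build is GRCm39 and DESeq2 was used, in a role not given; for the aligner, counting program, annotation and filters, no entry is given in the sources used here. FPKM keeps no read totals, so no counting interval is attached to a value. If library totals set the scale, a large share taken by a few genes in 1 line reduces the rest.

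The 11110 genes that reached an FPKM of 1 in 5 or more libraries were tested over the whole table with limma 3.58.1 in R 4.3.3 on log2(FPKM + 1), with trended, robust variance moderation, a group term, two-sided Benjamini-Hochberg adjustment over all tested genes and a threshold of 0.05. The code was tested on simulated data. Single genes also had an exact permutation test over the libraries. Tables and permutations were handled in Python 3.11.15 (pandas 2.3.3, with NumPy 2.4.6), Spearman's rho in SciPy 1.17.1, and figures in matplotlib 3.10.9. Each Rab gene was assigned to 1 trafficking step from textbook knowledge, although several act at more than 1. Library values are given for the 8 largest rises and falls, the most abundant member of each step and subfamilies with opposite calls, with at most 2 rises and 2 falls per regulator list. A gene that this rule picks is not reported here. The members, lists and rules were chosen with earlier results of these data known. RefSeq tables of GRCm38.p6 gave promoter sequence and gene order, and GENCODE M21 exon overlaps; no coordinate was converted between builds.

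Other settings tried were no filter, a stricter filter at an FPKM of 5, a pseudocount of 0.1, TPM, quantile normalization, equal medians, plain eBayes, the replicate number as a block, an exact rank-sum test, a log2 limit of 1, leaving out each library and leaving out both libraries that stand apart. The values are no counts, so no count test was used.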

Additional observations from a re-analysis of the deposited data

Results flagged for a closer look

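In 5 of 82 groups of 5 libraries (41 Rab genes in each line), 1 library stood farther from the rest than Dixon's 95% limit allows, where chance gives about 1 in 20. Rab30, the member with the largest fall, read 1.315 FPKM in MC38.T4 replicate 1, below the other MC38.T4 libraries (1.55 to 1.594 FPKM). Rab11a read 48.58 FPKM in the same library, against 59.12 to 61.64 FPKM in the other MC38.T4 libraries, and was called higher without that library or without MC38 replicate 2. Rab2b read 4.068 FPKM in MC38.T4 replicate 3 (others 3.436 to 3.58 FPKM) and Rab4b read 14.09 FPKM in MC38.T4 replicate 4 (others 12.75 to 13.09 FPKM). Rab5b read 41.47 FPKM in MC38 replicate 3 (others 43.83 to 44.47 FPKM). The calls of Rab30, Rab2b, Rab4b and Rab5b were made with each library left out in turn.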

How the results depend on the processing

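No called member changed direction under any alternative run, and 30 of 34 called Rab genes were called in all of the 19 or 20 alternatives run for each. The exceptions were Rab9 (adjusted p 0.0353 to 0.288 over the alternatives), Rab35 (0.0064 to 0.387), Rab27b and Rab3d. Of the genes not called, some alternatives called Rab7 (0.0103 to 0.52), Rab28 (0.0112 to 0.236), Rab11a (0.00226 to 0.395), Rab10 (0.0204 to 0.829) and Rab22a (0.0237 to 0.878), and none called Rab2a or Rab18. With a log2 limit of 1, 3 Rab genes were higher and 2 lower, against 1113 and 793 of all tested genes; this follows from the added limit. Rescaling to TPM shifted the median of all genes by -0.048, quantile normalization by -0.030 and equal medians by -0.028, with 15 higher and 19 lower, 14 and 17, and 15 and 19 Rab genes called. With the replicate number as a block (replicate block), 15 Rab genes were higher and 17 lower, with Rab9 and Rab35 not called (adjusted p = 0.0564 and 0.056). Deviations of same-numbered libraries correlated between -0.13 and 0.14, and 2 of 10 libraries correlated best with their own number in the other line. So few libraries can neither show nor exclude a pairing, and the number is the only link in the sample titles. Read totals are not given, so the precision of low values such as those of Rab40b is unknown.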
